A study of Mus musculus with 6 samples.

Results

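The 37 genes of the mouse mitochondrial genome were taken from an RNA sequencing table of whole ovaries at 9 days post partum (dpp). They are every row placed on the mitochondrial sequence, the one that holds CYTB, COX1 and ND1, among 47205 rows in all. By the table's own classes, 13 encode proteins, 2 encode ribosomal RNAs (rRNAs) and 22 encode transfer RNAs (tRNAs). All 37 were matched by position and strand to GENCODE M21, in which the mitochondrial coordinates are the same as in the table.

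Ovaries labelled SRSF1 cKO had Srsf1 knocked out in their granulosa cells (the somatic cells around each oocyte), and ovaries labelled WT are the set they were compared with. Each group has 3 libraries, and both groups share the tissue and the age. The Cre driver, the strain, the number of animals behind a library and any allele carried by the WT mice were not given in the sources used here. No label ties the libraries of a group to different animals. The p-values therefore reflect the spread between these samples alone, and that spread may be technical.

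Mitochondrial DNA is a small circle present in many copies per cell. It is transcribed from both strands into long precursors, and excision of the tRNAs that lie between the other genes frees most of the messenger and ribosomal RNAs. Its 13 proteins are core subunits of the respiratory chain and ATP synthase, and all other proteins of the organelle are made from nuclear genes. Oocytes are known for an exceptionally large store of mitochondria, which they pass on to the embryo. Stretches of mitochondrial DNA have also been copied into the nuclear chromosomes during evolution, where they persist as pseudogenes.

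The libraries held 16.8 to 18.7 M reads recovered from the FPKM values (fragments per kilobase, with libraries scaled to each other by the authors). Srsf1, a splicing factor of the serine/arginine-rich family, stood at 20.3, 26.9 and 21.4 FPKM in cKO, against 39.9, 49.6 and 46.3 FPKM in WT. The groups did not overlap, with a log2 difference of -0.96 (SE 0.134, limma adjusted p = 0.320; exact two-sided permutation p = 0.1, the lowest possible with 3 libraries a group). Of 10 granulosa cell markers 9 passed the filter, and their summed level was 596 to 691 FPKM in cKO and 734 to 815 FPKM in WT. All 12 oocyte markers passed, at a sum of 2439 to 2752 FPKM in cKO and 2588 to 2724 FPKM in WT, so that the libraries carried the markers of the labelled tissue. Muscle and brown fat, tissues rich in mitochondria, were near 0, with marker sums of 2.73 to 5.37 FPKM for muscle and 1.45 to 4.48 FPKM for fat over the 6 libraries. In whole ovaries, a lower number of cells of a type and less RNA per cell cannot be told apart.

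Levels along the mitochondrial sequence ran over more than 3 orders of magnitude. COX1, the catalytic core of cytochrome c oxidase, was the most abundant row of the whole table, with a mean of 5884 FPKM over the 6 libraries. ND1 and CYTB followed at 2829 and 2325 FPKM and were in positions 3 and 4 of the table. ND6, ND5, ND4 and ND2 formed the next tier at 1036, 928, 923 and 909 FPKM. Their ranges over the libraries overlapped with each other, but not with those of CYTB above or COX2 below. The other 6 coding genes were far lower. COX2 averaged 80.9 FPKM, ATP6 45.5 FPKM, COX3 40.7 FPKM, ND4L 14.8 FPKM, ND3 2.60 FPKM and ATP8 0.752 FPKM. In this order the ranges of ND1 and CYTB overlapped, as did those of ATP6 and COX3 and those of ND3 and ATP8. The ranges of COX1 and ND1, of COX2 and ATP6, of COX3 and ND4L and of ND4L and ND3 did not.

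**Figure D1:**
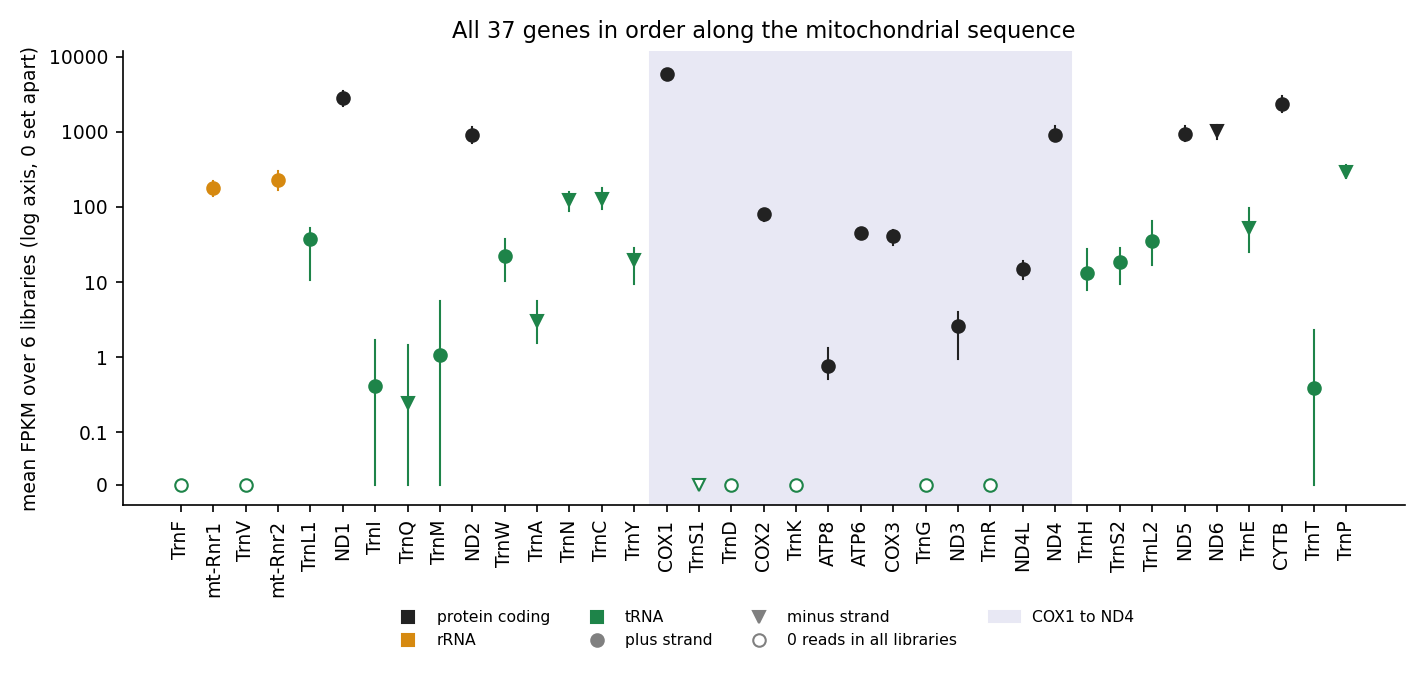
Mean FPKM over 6 libraries (log axis, with 0 set apart at the bottom) for the 37 mitochondrial genes in their order along the sequence; lines run from the lowest to the highest library. The 6 low coding genes, from COX2 at 80.9 FPKM down to ATP8 at 0.752 FPKM, and 5 of the 7 tRNA genes with 0 reads lie in the shaded stretch that starts with COX1 and ends with ND4.

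All 6 low coding genes lie next to each other, between COX1 and ND4. Genes of the same stretch have copies in the nuclear genome. GENCODE M21 places 7 unprocessed pseudogenes at chr1:24611535-24616197 on the minus strand of GRCm38, a span of 4663 bases. They match COX1 (its 3′ part), COX2, ATP6, COX3, ND3, ND4L and ND4 (its 5′ part), in the mitochondrial order. Over all aligned bases 5 of the 7 were identical to the mitochondrial gene, the copy of ND3 differed at 1 of 345 bases and the copy of COX1 at 6 of 492. The distances between neighbouring copies were the same as between the mitochondrial genes, with a single base of difference at 1 of the 6 junctions. Only distances were compared, and the sequence between the annotated copies was not examined.

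The following pairs show how close the copies are, with the mitochondrial gene above its nuclear copy, 80 bases each, 5′ to 3′ (sequences from GENCODE M21 transcripts, GRCm38). Bases that differ within a pair are in capitals. COX2 is at chrM:7013-7092 (plus strand) and Gm28661 at chr1:24615486-24615565 (minus strand), with no difference.
COX2: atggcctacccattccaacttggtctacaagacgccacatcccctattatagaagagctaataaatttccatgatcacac
Gm28661: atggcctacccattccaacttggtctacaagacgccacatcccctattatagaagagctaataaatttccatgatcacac
ND3 is at chrM:9459-9538 (plus strand) and Gm28438 at chr1:24613040-24613119 (minus strand), where the single differing base of the whole alignment lies near the start.
ND3: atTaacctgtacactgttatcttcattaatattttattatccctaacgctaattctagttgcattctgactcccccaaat
Gm28438: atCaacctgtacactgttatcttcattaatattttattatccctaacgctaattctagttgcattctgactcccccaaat
COX1 is shown from the point where its copy begins, at chrM:6381-6460 (plus strand), with Gm29216 at chr1:24616118-24616197 (minus strand). All 6 differences fall in the opening bases of the copy.
COX1: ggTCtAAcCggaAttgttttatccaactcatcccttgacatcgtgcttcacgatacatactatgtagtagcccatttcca
Gm29216: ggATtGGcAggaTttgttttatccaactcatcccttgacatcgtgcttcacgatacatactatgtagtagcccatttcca

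The share of each gene that could not be told from a nuclear transcript was measured in windows of 100 bases. In ND3, ND4L, COX3, ATP6 and COX2, 97.6% to 99.9% of windows also occurred in an annotated nuclear transcript, and these genes averaged 2.60 to 80.9 FPKM. In COX1, ND4 and ND2, 3.2% to 60.8% of windows were shared, and these genes averaged 909 to 5884 FPKM. ND1, CYTB, ND5, ND6 and ATP8 shared no window of this length. The first 4 of those averaged 928 to 2829 FPKM, whereas ATP8 averaged 0.752 FPKM. The 43 bases that ATP8 shares with ATP6 are also part of the nuclear copy of ATP6, a match too short for these windows. By spacing alone, the rest of ATP8 would fall in a gap of 233 bases between annotated copies, and the sequence of that gap was not examined. ATP8 shared no window of 50 bases either. The shares of the other genes depended on the window. With windows of 50 bases COX1 shared 51.1%, ND4 62.2%, ND2 8.2% and ND5 7.6%, and with windows of 150 bases COX1 shared 23.6%, ND4 59.2% and ND2 and ND5 0.0%. ND3, ND4L, COX3, ATP6 and COX2 stayed at 97.0% or more with 150 bases and at 98.0% or more with 50. How reads that fit several places were counted was not given in the sources used here, and the part of shared sequence in these levels was not tested.

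**Figure D2:**
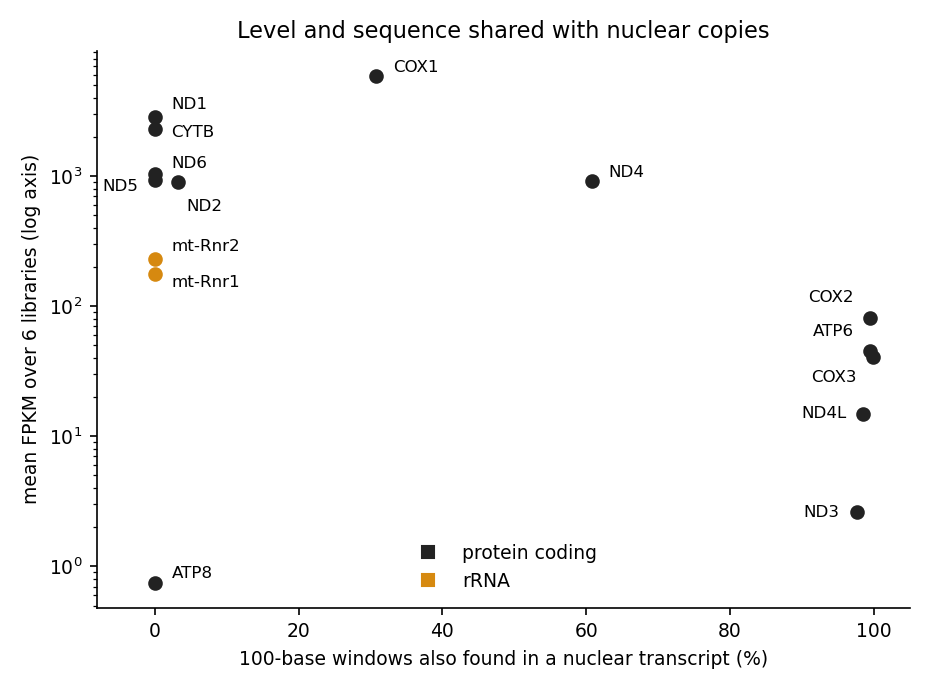
Mean FPKM over 6 libraries (log axis) against the percent of 100-base windows of each coding or rRNA gene that also occur in an annotated nuclear transcript. The 5 genes at 97.6% to 99.9% lie between 2.60 and 80.9 FPKM, and ATP8 is the sole low coding gene at 0%.

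None of the 7 pseudogenes is a named row of the table. ATP8, which encodes a small membrane subunit of ATP synthase, had 2, 4 and 5 reads in cKO and 2 reads in each WT library. It is shown whole, at chrM:7766-7969 (plus strand, GRCm38), with the 43 bases that it shares with ATP6 in capitals.
ATP8: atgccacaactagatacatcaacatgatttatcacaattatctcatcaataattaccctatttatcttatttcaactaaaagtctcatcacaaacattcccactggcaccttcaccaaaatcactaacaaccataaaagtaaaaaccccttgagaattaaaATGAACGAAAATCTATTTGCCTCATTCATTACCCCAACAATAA
Its partner ATP6 had 433 to 684 reads per library. Reads in the shared bases can belong to either gene, and the counting rule for them was not given in the sources used here.

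The comparison asked whether the level of any mitochondrial gene differed between cKO and WT ovaries. Genes whose mean reached 1 FPKM were tested by limma on log2(FPKM + 1), with p-values adjusted over all 14714 genes tested (threshold 0.05). Of the 37 mitochondrial genes 26 passed this filter, namely 12 coding, 2 rRNA and 12 tRNA genes. ATP8 and 10 tRNA genes did not. Of the 26 tested, 0 passed the threshold in either direction, where 0.0204% of all genes did (0.00680% higher and 0.0136% lower). At an unadjusted limma p under 0.05 there was 1 member, ND3, higher in cKO, beside 3.64% of all genes higher and 2.70% lower. ND3 was also the sole member whose groups did not overlap, where 6.37% of all genes tested were higher in cKO without overlap and 5.89% lower. limma-voom on the recovered reads also called 0 mitochondrial genes. Srsf1 itself, with a log2 difference of -0.96, did not pass the threshold, so 0 calls do not show that levels were equal.

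The mean was higher in cKO for 11 of the 12 coding genes tested, with a median log2 difference of 0.22, while 50.0% of all genes tested had a higher mean in cKO. These genes are read from the same libraries and move together, so the 11 are not independent observations. The difference of both rRNA genes was negative, and 7 of 12 tRNA genes had a positive one and 5 a negative one (median 0.13). Limma adjusted p-values ran from 0.768 to 0.974 over the 26 genes.

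**Figure D3:**
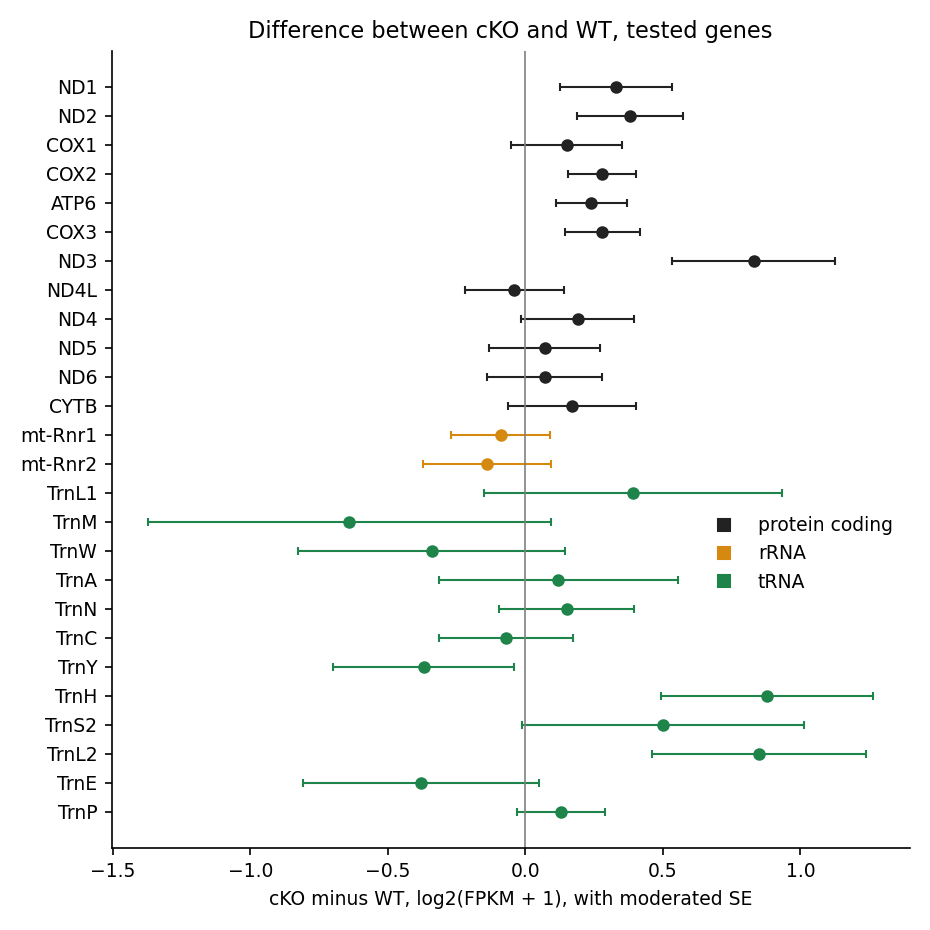
Difference between cKO and WT on the log2(FPKM + 1) scale for the 26 mitochondrial genes tested, with the moderated standard error from limma over 3 libraries per group. ND3 at 0.83, TrnH at 0.88 and TrnL2 at 0.85 lie farthest to the right, TrnM at -0.64 farthest to the left, and 0 of the 26 passed the threshold.

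Complex I, NADH dehydrogenase, takes electrons from NADH and pumps protons, and 7 of its subunits are mitochondrially encoded. ND1, which lies where the peripheral arm meets the membrane arm (gene 17716, chrM:2751-3707, plus strand), stood at 2571, 3458 and 3450.3 FPKM in cKO, against 2188, 2473 and 2835 FPKM in WT. cKO replicate 1 fell within the WT range and the other cKO libraries lay above it. The log2 difference was 0.33 (SE 0.203, limma adjusted p = 0.811). ND2, a proton-pumping subunit of the membrane arm (gene 17717, chrM:3914-4951, plus strand), stood at 792, 1129 and 1177 FPKM in cKO, against 722, 739 and 893 FPKM in WT. Again cKO replicate 1 lay below the highest WT library, and the difference was 0.38 (SE 0.192, limma adjusted p = 0.793).

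ND4, another proton-pumping subunit (gene 17719, chrM:10167-11544, plus strand), stood at 749.9, 1199 and 1021 FPKM in cKO, against 764, 813 and 991 FPKM in WT. Its lowest value of all 6 libraries was thus in cKO replicate 1 and its highest in cKO replicate 2 (log2 difference 0.19, SE 0.206). ND5, at the far end of the membrane arm (gene 17721, chrM:11742-13565, plus strand), stood at 752, 913 and 1211 FPKM in cKO, against 811, 871 and 1008 FPKM in WT. The cKO libraries enclosed the whole WT range, and the log2 difference was 0.07 (SE 0.201).

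ND6 is the sole coding gene on the minus strand of this sequence (gene 17722, chrM:13552-14070). It stood at 815, 1144 and 1236 FPKM in cKO, against 867, 967 and 1189.7 FPKM in WT, with a log2 difference of 0.07 (SE 0.208). Per length, the minus-strand ND6 was thus about as abundant as the plus-strand ND5 that it meets tail to tail, with an ND6 over ND5 ratio of 1.12 ± 0.119 in cKO and 1.12 ± 0.0557 in WT (SD, n = 3 each). Their last 80 bases are shown because the genes overlap there, ND5 at chrM:13486-13565 (plus strand) and ND6 at chrM:13552-13631 (minus strand, GRCm38), each 5′ to 3′ on its own strand. Capitals mark the 14 bases where the genes overlap on opposite strands.
ND5: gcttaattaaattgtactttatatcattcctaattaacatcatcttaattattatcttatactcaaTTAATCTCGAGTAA
ND6: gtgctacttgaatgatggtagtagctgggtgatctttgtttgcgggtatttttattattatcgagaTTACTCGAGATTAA
The strandedness of the libraries was not given in the sources used here, so reads of ND6 and reads of a transcript antisense to it cannot be told apart.

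ND3 and ND4L, small membrane subunits of complex I, were the lowest of its genes. ND3 (gene 17718, chrM:9459-9806, plus strand) stood at 3.34, 4.04 and 3.13 FPKM in cKO, against 1.0, 0.948 and 3.11 FPKM in WT. These values rest on 22, 27 and 20 reads in cKO and on 6, 6 and 20 reads in WT, so the gap between cKO replicate 3 and WT replicate 3 came to less than 1 read. The log2 difference was 0.83 (SE 0.295, unadjusted p = 0.0258, limma adjusted p = 0.768). ND4L (gene 17720, chrM:9877-10173, plus strand), whose coding sequence runs into that of ND4, stood at 11.0, 14.2 and 18.9 FPKM in cKO, against 14.3, 15.9 and 14.2 FPKM in WT. It was the one tested coding gene with a negative difference, of -0.04 (SE 0.179). ND4 was 54.0 to 84.4 times as abundant per length as ND4L in cKO and 51.0 to 69.7 times in WT.

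CYTB, cytochrome b, is the sole mitochondrially encoded subunit of complex III and passes electrons from ubiquinol (gene 17711, chrM:14145-15288, plus strand). It stood at 1821, 2970.0 and 2639 FPKM in cKO, against 1934, 2071 and 2516 FPKM in WT. The lowest and the highest of the 6 libraries were both cKO, and the log2 difference was 0.17 (SE 0.232, limma adjusted p = 0.898).

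Complex IV, cytochrome c oxidase, reduces oxygen to water, and COX1, COX2 and COX3 form its core. COX1 (gene 17708, chrM:5328-6872, plus strand) stood at 5765, 6375 and 6389.6 FPKM in cKO, against 5013, 5533 and 6231 FPKM in WT. cKO replicates 2 and 3 lay just above WT replicate 3, and cKO replicate 1 lay within the WT range (log2 difference 0.15, SE 0.201, limma adjusted p = 0.897). COX2, which takes up electrons from cytochrome c (gene 17709, chrM:7013-7696, plus strand), stood at 82.4, 95.0 and 88.3 FPKM in cKO, against 69.2, 65.3 and 85.4 FPKM in WT. Only WT replicate 3 reached into the cKO range (log2 difference 0.28, SE 0.123, limma adjusted p = 0.773). COX3, a structural core subunit (gene 17710, chrM:8607-9390, plus strand), stood at 42.2, 42.1 and 49.8 FPKM in cKO, against 36.6, 30.9 and 42.9 FPKM in WT. Again WT replicate 3 alone overlapped with cKO (log2 difference 0.28, SE 0.136).

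ATP6, the proton channel subunit of ATP synthase (gene 17705, chrM:7927-8607, plus strand), stood at 48.8, 52.3 and 46.6 FPKM in cKO, against 36.9, 38.4 and 50.0 FPKM in WT. WT replicates 1 and 2 lay below all cKO libraries and WT replicate 3 among them. The log2 difference was 0.24 (SE 0.130, limma adjusted p = 0.799). ATP8 stood at 0.518, 1.02 and 1.34 FPKM in cKO, against 0.569, 0.539 and 0.531 FPKM in WT, below the filter.

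**Figure D4:**
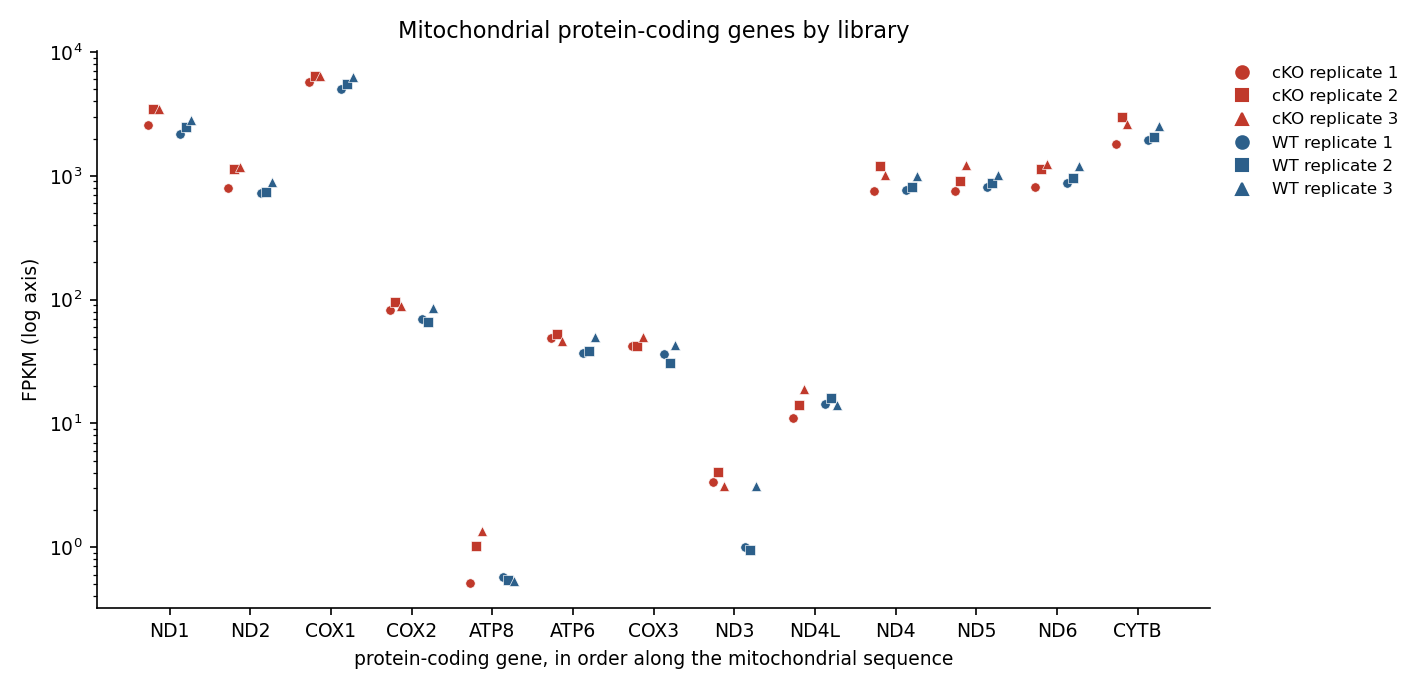
FPKM (log axis) of the 13 mitochondrial protein-coding genes in their order along the sequence, with each library as a point, cKO left of WT. In the 7 most abundant genes, cKO replicate 1 lies within or below the WT values and WT replicate 3 lies above the other WT libraries.

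The 2 rRNA genes encode the RNAs of the small and the large subunit of the mitochondrial ribosome. mt-Rnr1 (small subunit, chrM:70-1024, plus strand) stood at 193, 181 and 141 FPKM in cKO, against 150.2, 177 and 223 FPKM in WT. mt-Rnr2 (large subunit, chrM:1094-2675, plus strand) stood at 206, 262 and 184 FPKM in cKO, against 169.9, 299 and 263 FPKM in WT. The groups overlapped in both genes, and the log2 differences were -0.09 (SE 0.181) and -0.14 (SE 0.233), with limma adjusted p-values of 0.931 and 0.912. Both rRNAs were below the 7 abundant messenger RNAs in every library. Whether rRNA was removed, or polyadenylated RNA selected, before sequencing was not given in the sources used here.

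The order of the libraries was not the same in rRNA as in coding genes. cKO replicate 3, among the highest in coding genes, had the lowest mt-Rnr1 value of the 6 and the next to lowest mt-Rnr2 value after WT replicate 1. The mt-Rnr2 over mt-Rnr1 ratio of FPKM was 1.28 ± 0.192 in cKO and 1.33 ± 0.310 in WT (SD, n = 3 each).

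Mitochondrial tRNAs decode the organelle's own code and were covered unevenly. Of the 22 genes, 15 had at least 1 read in some library. The 8 encoded on the minus strand summed to 641, 973 and 778 reads in cKO and 585, 673 and 996 reads in WT. The 14 on the plus strand summed to 108, 220 and 241 reads in cKO and 76, 151 and 188 reads in WT. The minus-strand genes thus held more of the assigned tRNA reads in every library. With the strandedness of the libraries unknown, these reads cannot be told apart from reads of the opposite-strand precursor.

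The most abundant tRNA genes, shown with the anticodon in capitals because they carry most of these reads, all lie on the minus strand: TrnP (proline, chrM:15356-15422), TrnC (cysteine, chrM:5192-5257), TrnN (asparagine, chrM:5089-5159) and TrnE (glutamate, chrM:14071-14139). TrnL2 (leucine, chrM:11671-11741) and TrnH (histidine, chrM:11546-11612), on the plus strand, are shown because they had the largest positive differences among the tRNA genes. Sequences are 5′ to 3′ on the gene's own strand, from GENCODE M21 (GRCm38).
TrnP: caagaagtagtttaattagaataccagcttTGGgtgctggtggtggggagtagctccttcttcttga
TrnC: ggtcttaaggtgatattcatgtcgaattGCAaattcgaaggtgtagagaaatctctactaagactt
TrnN: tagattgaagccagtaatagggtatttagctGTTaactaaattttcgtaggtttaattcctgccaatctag
TrnE: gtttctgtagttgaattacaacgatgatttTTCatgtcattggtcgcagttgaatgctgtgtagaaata
TrnL2: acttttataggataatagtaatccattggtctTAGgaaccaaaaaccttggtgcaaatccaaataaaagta
TrnH: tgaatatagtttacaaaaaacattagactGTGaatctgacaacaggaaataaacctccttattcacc

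TrnP, the tRNA next to the control region, stood at 268, 358 and 298 FPKM in cKO, against 244, 268 and 332 FPKM in WT (282 to 461 reads). The groups overlapped widely (log2 difference 0.13, SE 0.161, limma adjusted p = 0.889). TrnC stood at 94.5, 144 and 133 FPKM in cKO, against 99.4, 118 and 177 FPKM in WT. TrnN stood at 101, 157 and 123 FPKM in cKO, against 102, 88.3 and 159 FPKM in WT. TrnC and TrnN are neighbours in a cluster of minus-strand tRNAs, and both were highest in WT replicate 3. TrnE stood at 25.3, 59.6 and 48.2 FPKM in cKO, against 35.3, 47.8 and 97.3 FPKM in WT, with the widest relative range of these 4, the lowest in cKO replicate 1 and the highest in WT replicate 3.

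TrnL2 stood at 23.8, 49.1 and 66.0 FPKM in cKO, against 22.1, 17.0 and 33.5 FPKM in WT, on 22 to 86 reads. WT replicate 3 lay above cKO replicate 1, and the log2 difference was 0.85 (SE 0.389, unadjusted p = 0.0663, limma adjusted p = 0.773). TrnH stood at 7.89, 18.6 and 27.7 FPKM in cKO, against 7.80, 9.03 and 8.08 FPKM in WT, on 9 to 34 reads. cKO replicate 1 fell among the WT libraries and the other cKO libraries lay above them (log2 difference 0.88, SE 0.386, limma adjusted p = 0.773). TrnS2, which lies between TrnH and TrnL2, stood at 9.86, 28.2 and 27.7 FPKM in cKO, against 9.84, 9.32 and 27.5 FPKM in WT (log2 difference 0.50, SE 0.513). These 3 tRNA genes follow each other directly between ND4 and ND5.

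Of the other tested tRNA genes, TrnL1 had a log2 difference of 0.39 (SE 0.542) and ran from 10.8 to 52.1 FPKM, both of them WT libraries. TrnW (range 10.3 to 37.2 FPKM) and TrnY (range 9.47 to 28.3 FPKM) were lowest in cKO replicate 1 and highest in WT replicate 3, and their log2 differences were -0.34 (SE 0.486) and -0.37 (SE 0.329). TrnA had 2 to 7 reads per library. TrnM, which passed the filter at a mean of 1.06 FPKM, had 8 reads in all, 7 of them in WT replicate 2, so its log2 difference of -0.64 (SE 0.732) rests on that library. TrnI, TrnQ and TrnT had 3, 2 and 3 reads in all and were below the filter.

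The remaining 7 tRNA genes, TrnF, TrnV, TrnS1, TrnD, TrnK, TrnG and TrnR, had 0 reads in all 6 libraries. A count of 0 allows up to 3 reads, which is 2.23 to 2.68 FPKM for genes of this length, counting error only. All 5 tRNA genes between the starts of COX1 and ND4 were at 0, against 2 of the other 17. By spacing alone, the 5 would fall in gaps between the nuclear copies described above, and the sequence of those gaps was not examined. No tRNA gene, with or without reads, shared a window of 50 bases with an annotated nuclear transcript. TrnF and TrnV flank mt-Rnr1. The 7 genes are 65 to 70 bases long, within the 59 to 75 bases of the tRNA genes that had reads. The reason for the counts of 0 was not tested.

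Mitochondrial genes together took 1.80%, 2.32% and 2.18% of the recovered reads in cKO and 1.67%, 1.80% and 2.08% in WT. The 95% Wilson intervals ran from 1.80% to 1.81% in cKO replicate 1 and from 1.66% to 1.68% in WT replicate 1 and were as narrow in the others. They cover counting error only, and reads without molecular identifiers are not independent molecules. cKO replicates 2 and 3 were the highest and WT replicate 1 was the lowest, and the groups overlapped because WT replicate 3 lay above cKO replicate 1. The mean was 2.10% ± 0.269 in cKO and 1.85% ± 0.210 in WT (SD, n = 3 each), so the difference between groups was about as large as the spread within them.

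Coding genes held nearly all of this, at 2.05% ± 0.263 of reads in cKO and 1.79% ± 0.201 in WT. rRNA genes held 0.0514% ± 0.00941 in cKO and 0.0563% ± 0.0122 in WT, and tRNA genes 0.00529% ± 0.00120 in cKO and 0.00495% ± 0.00129 in WT. As a sum of FPKM, coding genes stood at 13453, 17396 and 17332 in cKO and 12458, 13618 and 15860.0 in WT. The log2 difference of the mean summed levels was 0.20, with a pooled SD of 0.195 between libraries.

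**Figure D5:**
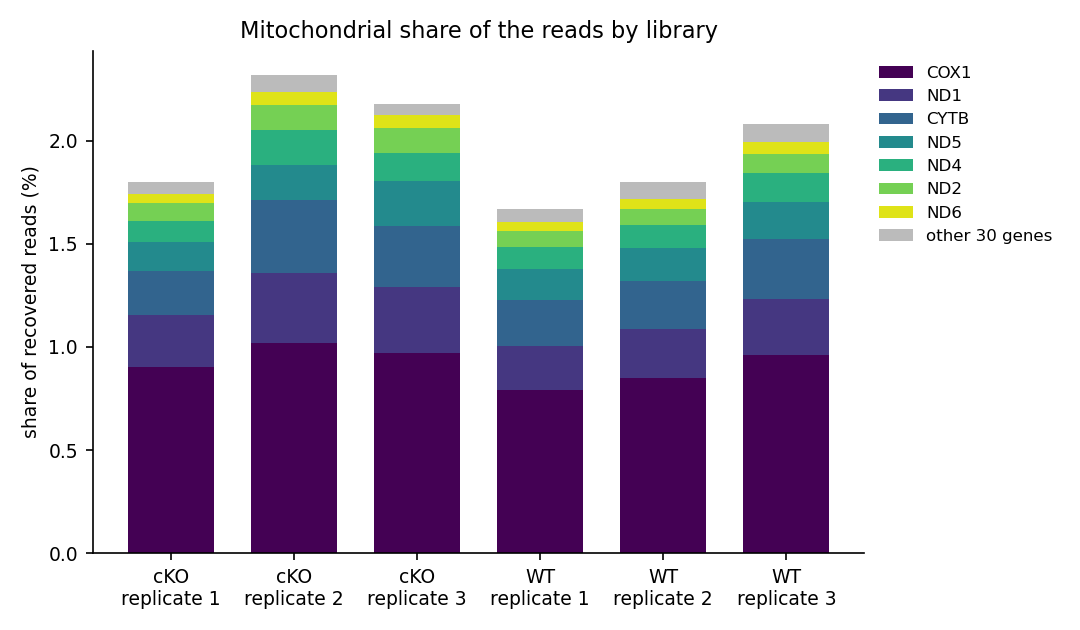
Share of recovered reads (percent, axis from 0) in mitochondrial genes for each library, cKO left of WT, split by gene. Total shares run from 1.67% in WT replicate 1 to 2.32% in cKO replicate 2, and COX1 makes up the largest piece in every library.

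The spread within groups was common to the genes. Of the 10 coding genes with at least 100 reads in every library, 3 were above their own mean of log2(FPKM + 1) in cKO replicate 1, 9 in cKO replicate 2 and 10 in cKO replicate 3. In WT replicates 1 and 2, 0 were above it, and in WT replicate 3 all 10 were. The highest value was in cKO replicate 2 for 5 of the genes and in cKO replicate 3 for the other 5. The lowest was in cKO replicate 1 for 4, in WT replicate 1 for 4 and in WT replicate 2 for 2. The median log2 deviation of these genes from their own means was -0.14, 0.22 and 0.24 in cKO replicates 1, 2 and 3 and -0.24, -0.17 and 0.11 in WT replicates 1, 2 and 3.

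cKO replicate 1, the cKO library with the lowest mitochondrial share, also stood apart in markers of other cells and states. The 10 leukocyte markers summed to 238, 81.7 and 129.8 FPKM in cKO and 48.4, 33.1 and 56.6 FPKM in WT, and 10 of 10 had a higher mean in cKO. The 13 interferon response genes summed to 719, 135 and 185 FPKM in cKO and 122, 98.8 and 129 FPKM in WT, with 13 of 13 higher in cKO. Granulosa cell markers summed to 691, 598 and 596 FPKM in cKO and 815, 807 and 734 FPKM in WT, with 8 of the 9 tested lower in cKO. The 8 surface epithelium markers summed to 347, 454 and 416 FPKM in cKO and 322, 275 and 312 FPKM in WT, with 8 of 8 higher in cKO. Like the mitochondrial share, this sum was highest in cKO replicate 2 and next in cKO replicate 3. Unlike that share, it was lowest in WT replicate 2, and cKO replicate 1 lay above all WT libraries. The theca and stroma markers summed to 1635, 2147 and 2041 FPKM in cKO and 1417, 1851 and 2064 FPKM in WT. As for the mitochondrial share, cKO replicate 2 was highest and WT replicate 1 lowest, but here WT replicate 3 lay above cKO replicate 3. The 12 oocyte markers summed to 2752, 2439 and 2601 FPKM in cKO and 2724, 2588 and 2706 FPKM in WT. Unlike the mitochondrial share, the oocyte sum was highest in cKO replicate 1 and lowest in cKO replicate 2. Endothelium markers summed to 139.9, 145 and 144 FPKM in cKO and 129, 125 and 129 FPKM in WT. Erythroid markers summed to 157, 240.2 and 572 FPKM in cKO and 189, 182 and 333 FPKM in WT. The part of cell composition in the mitochondrial levels was not tested.

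Within the mitochondrial coding reads, the makeup varied more among the cKO libraries than among the WT libraries. COX1 took 51.7%, 45.2% and 45.3% of these reads in cKO and 48.7%, 49.2% and 47.9% in WT. The highest and the lowest COX1 share were thus both in cKO. CYTB took 12.1% to 15.6% in cKO and 13.6% to 14.3% in WT, and ND5 7.6% to 10.1% in cKO and 9.1% to 9.3% in WT. ND1 took 14.3%, 15.2% and 15.1% in cKO and 13.2%, 13.6% and 13.5% in WT. ND2 took 4.8%, 5.4% and 5.6% in cKO and 4.7%, 4.4% and 4.6% in WT. The groups did not overlap for ND1 and ND2, a pair singled out after the values were seen, and they overlapped for COX1, CYTB, ND5, ND4 and ND6. By FPKM, 6.37% of all genes tested were higher in cKO without overlap and 5.89% lower. These shares are parts of 1 whole, so they are not independent of each other. The 6 low coding genes together took 0.671% ± 0.0593 in cKO and 0.632% ± 0.0483 in WT.

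Nuclear genes that express the mitochondrial genome or share its complexes were read from the same fit, in 12 lists with 225 tested genes. Of these, 0 passed the threshold, where 0.0204% of all genes did. At an unadjusted limma p under 0.05 there were 7 of the 225 (3.11%) in either direction, beside 933 of all 14714 genes tested. By direction, 6 of the 225 were higher and 1 lower in cKO, beside 3.64% of all genes higher and 2.70% lower. The median log2 difference of the 225 genes was 0.08, and their smallest limma adjusted p was 0.713. The member with the smallest p in each list, and Tfam next to it in the transcription list, are given as mean FPKM ± SD (n = 3 each).

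Transcription factors of mitochondrial DNA were evenly divided, with 4 of 8 higher in cKO (median log2 difference 0.01). Tefm, the elongation factor, averaged 4.82 ± 0.275 FPKM in cKO and 4.14 ± 0.683 FPKM in WT. Tfam, which packages the DNA and starts transcription, averaged 20.3 ± 1.29 FPKM in cKO and 18.7 ± 1.58 FPKM in WT. Of 15 genes for replication and upkeep 7 were higher (median -0.03), with Primpol, a primase-polymerase, at 3.59 ± 0.237 FPKM in cKO and 2.87 ± 0.0982 FPKM in WT. RNA processing genes had 8 of 14 higher (median 0.05), with the pseudouridine synthase gene Trub2 at 4.61 ± 0.600 FPKM in cKO and 5.54 ± 0.157 FPKM in WT.

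Genes for RNA stability and decay had 9 of 17 higher (median 0.02). Tbrg4, a FASTK family member, averaged 16.0 ± 0.365 FPKM in cKO and 13.4 ± 0.791 FPKM in WT (log2 difference 0.24, SE 0.0831, limma adjusted p = 0.761). Translation factors had 7 of 14 higher (median 0.01), with Taco1, which activates translation of COX1, at 4.13 ± 1.12 FPKM in cKO and 5.53 ± 1.03 FPKM in WT. Biogenesis regulators had 2 of 6 tested genes higher (median -0.04), with Gabpa at 18.5 ± 1.74 FPKM in cKO and 20.1 ± 1.15 FPKM in WT. Ppargc1a and Ppargc1b of this list were below the filter and got no test. Ppargc1a averaged 0.286 ± 0.0271 FPKM in cKO and 0.484 ± 0.0279 FPKM in WT, and Ppargc1b 0.653 ± 0.218 FPKM in cKO and 0.725 ± 0.189 FPKM in WT. Ppargc1a was lower in cKO without overlap, as were 5.89% of all genes tested, and Ppargc1b overlapped.

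Nuclear subunits of the complexes had small positive medians. Beside the counts that follow, 50.0% of all genes tested had a higher mean in cKO. The genes of a list are read from the same libraries, so these counts are not independent observations. The summed level of each list in this paragraph was highest in cKO replicate 2 and lowest in WT replicate 2. For complex I, 33 of 36 had a higher mean in cKO (median 0.12), and Ndufs7, an iron-sulfur subunit, averaged 54.0 ± 5.20 FPKM in cKO and 44.3 ± 3.65 FPKM in WT. For complex III it was 8 of 9 (median 0.22), with Uqcrq at 28.0 ± 3.70 FPKM in cKO and 23.4 ± 4.18 FPKM in WT. For complex IV it was 10 of 10 (median 0.23), with Cox6b1 at 126 ± 13.0 FPKM in cKO and 108 ± 10.9 FPKM in WT. For ATP synthase it was 13 of 15 (median 0.09), with Atp5l at 55.2 ± 11.5 FPKM in cKO and 41.7 ± 10.8 FPKM in WT. Complex II, which has no mitochondrially encoded subunit, had 3 of 4 (median 0.08), with Sdhc at 76.7 ± 9.63 FPKM in cKO and 69.1 ± 3.59 FPKM in WT. Mitochondrial ribosomal proteins had 68 of 78 (median 0.10), with Mrpl44 at 19.6 ± 0.440 FPKM in cKO and 15.4 ± 0.688 FPKM in WT (log2 difference 0.33, SE 0.0790, limma adjusted p = 0.713). Of the nuclear genes named for their small p, Primpol, Tbrg4, Ndufs7 and Mrpl44 were higher in cKO without overlap and Trub2 lower. Genes picked for a small p tend not to overlap, so they do not stand for their lists. Higher without overlap over whole lists were 8 of 78 ribosomal protein, 2 of 36 complex I and 1 of 9 complex III genes. Replication (1 of 15), RNA stability (1 of 17) and biogenesis (1 of 6) added to these, with 0 in the other lists. Lower without overlap were 3 of 15 replication, 2 of 14 RNA processing, 2 of 17 RNA stability and 1 of 14 translation genes. Among all genes tested, 6.37% were higher in cKO without overlap and 5.89% lower.

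The nuclear and mitochondrial subunits of a complex ordered the libraries differently. Nuclear complex IV genes summed to 1106, 1459 and 1175 FPKM in cKO and to 1180.1, 882 and 1131 FPKM in WT, lowest in WT replicate 2. Nuclear complex I genes summed to 1450.0, 1666 and 1403 FPKM in cKO and to 1449, 1201 and 1475 FPKM in WT, again lowest in WT replicate 2. The mitochondrially encoded COX genes summed to 5889, 6512 and 6528 FPKM in cKO and 5119, 5629 and 6359 FPKM in WT, and the ND genes to 5694, 7860.3 and 8117 FPKM in cKO and 5367, 5879.7 and 6935 FPKM in WT. Both of these sums were lowest in WT replicate 1 and highest in cKO replicate 3, whereas both nuclear sums were highest in cKO replicate 2.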

How the data were processed

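Per gene, the authors deposited FPKM values for all 6 libraries in a single table. The submitters' processing notes name HISAT2 2.0.5 and the builds mm10 and GRCm39. The chromosome accessions in the table are those of GRCm39. The counter, annotation release and handling of multiply placed reads were not given in the sources used here. FPKM times gene length gave whole reads for 100% of values within 0.01, and no further scaling was applied.

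Log2(FPKM + 1), which understates changes of low genes, was fitted with limma 3.58.1 in R 4.3.3 (eBayes with trend, two-sided, Benjamini-Hochberg over 14714 genes of mean FPKM of at least 1), without covariates. Differences are cKO minus WT. Named are Srsf1, every mitochondrial gene, up to 2 genes per nuclear list with the smallest p, and the biogenesis regulators below the filter. Sequences and windows came from GENCODE M21 (GRCm38), and no coordinates were converted between builds. The fit was tested on simulated data. Members and lists were chosen with earlier results of these data known. Alternatives were other pseudocounts, filters, scalings, gene sets, a replicate block, limma-voom on recovered reads and leaving out each library.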

Additional observations from a re-analysis of the deposited data

How the results depend on the processing

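Mitochondrial genes called stayed at 0 in all 15 other settings, with a smallest limma adjusted p of 0.382, and 9 to 12 coding genes had a higher mean in cKO. Srsf1 was not called in any of these settings either. Of all genes, the 1 higher call became 0 with a pseudocount of 0.1, no filter, a filter at 5 FPKM, protein-coding genes only, the replicate block or limma-voom. The 2 lower calls became 0 with no filter, the replicate block or limma-voom, and 1 with protein-coding genes only. Leaving out each library gave 0 to 1 higher and 0 to 1 lower. Same-numbered libraries had correlated deviations of 0.18, -0.08 and -0.06, so the numbers were not taken to pair samples; with the replicate block, 0 genes were called higher and 0 lower. Of 26 tested members, 12 changed sign when a library was left out and 0 in the 9 other settings. Their log2 differences then ran from -0.05 to 0.25 for ND6, -0.11 to 0.24 for ND5, -0.22 to 0.14 for ND4L, -0.38 to 0.03 for mt-Rnr2, -0.22 to 0.06 for mt-Rnr1, -0.25 to 0.17 for TrnC, -0.03 to 0.39 for TrnN, -0.69 to 0.02 for TrnE, -0.27 to 0.81 for TrnL1, -0.75 to 0.02 for TrnW, -0.63 to 0.00 for TrnY and -0.16 to 0.56 for TrnA. The 14 that kept their sign moved too, from 0.02 to 0.37 for CYTB, 0.04 to 0.38 for ND4, 0.07 to 0.23 for COX1, 0.24 to 0.47 for ND1, 0.28 to 0.56 for ND2, 0.20 to 0.39 for COX2, 0.17 to 0.39 for COX3, 0.16 to 0.38 for ATP6, 0.65 to 1.18 for ND3, 0.02 to 0.26 for TrnP, 0.25 to 0.98 for TrnS2, 0.54 to 1.25 for TrnL2, 0.51 to 1.35 for TrnH and -1.09 to -0.50 for TrnM. Without a library, the difference of summed coding levels ran from 0.12 to 0.31 (log2; 0.21 under each other scaling), that of the share of reads from 0.15 to 0.40 percentage points (0.42 as a share of summed FPKM), and that of Srsf1 from -1.08 to -0.88. Depth limits ND3, ATP8 and the rarer tRNA genes, which rest on few reads.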

Other observations

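An unnamed row of the table, on chromosome 1 from 24650298 to 24655269 (plus strand, 2935 bases of length, coordinates of the table, which uses GRCm39 accessions), carries the authors' annotation for cytochrome c oxidase subunit 3 and the ATP synthase A chain, the products of COX3 and ATP6. It is the 1 row between Gm26418 and Lmbrd1, the genes that also flank the nuclear cluster of 7 mitochondrial pseudogenes in GENCODE M21. It stood at 33.0, 43.4 and 38.8 FPKM in cKO, against 28.0, 30.4 and 39.1 FPKM in WT, on 1416 to 2448 reads per library. These levels overlapped with those of COX3 and ATP6 themselves. WT replicate 3 fell within the cKO range, and the log2 difference was 0.24 (SE 0.153, limma adjusted p = 0.821). The row is on the opposite strand to the annotated cluster, and which reads it holds was not tested.

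The FPKM ratio of ND2 over ND5, singled out after the values were seen, was 1.05, 1.24 and 0.97 in cKO and 0.89, 0.85 and 0.89 in WT. The groups did not overlap, at 1.09 ± 0.139 in cKO and 0.877 ± 0.0231 in WT (SD, n = 3 each). By FPKM, 6.37% of all genes tested were higher in cKO without overlap and 5.89% lower, and ND2 and ND5 each overlapped. The ratio of ND1 over COX1 overlapped, at 0.446, 0.542 and 0.540 in cKO and 0.436, 0.447 and 0.455 in WT. The ratios of ND6 over ND5, ND4 over ND4L and mt-Rnr2 over mt-Rnr1 overlapped too.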
